A study of Homo sapiens with 10 samples.

Results

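The epidermal growth factor (EGF) receptor family and its ligands were followed in DU145 and LNCaP, established human prostate cancer cell lines, on 10 expression arrays. The members were 10 named genes, 4 receptors (EGFR, ERBB2, ERBB3 and ERBB4) and 6 ligands (EGF, TGFA, AREG, EREG, HBEGF and BTC). Each gene was read through probe sets whose annotation held its symbol and no other, and was represented by the probe set with the highest mean level. By this rule 9 of the 10 genes had a probe set, through 33 probe sets in all, and AREG was not analysed here. Of the 19775 genes with a probe set in the series, 14313 passed a filter on low values, which asked that a gene exceed the array median on 2 or more of the 10 arrays. The filter kept 8 of the 9 measured members and left out ERBB4.

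The study compared cells selected for a stem cell reporter with control cells, and then asked how the selected cells looked after ribavirin, an antiviral guanosine analogue. DU145 is an androgen-independent line from a brain metastasis, and LNCaP, which responds to androgens, came from a metastasis in a lymph node. In both lines, all cells carried a transduced vector with GFP and a puromycin resistance gene. In the EOS vector these genes were under enhancers of OCT4 and SOX2, and surviving cells were enriched by culture in puromycin over several weeks. In the PGK vector, the control, they were under the ubiquitous PGK promoter, and the labels do not say whether PGK cells were also kept in puromycin. Per line there were 2 arrays of PGK cells, 2 of EOS cells and 1 of ribavirin-treated cells, which by its label came from EOS cells number 2. The dose and duration of ribavirin are not given in the sources used here. The labels do not state that same-group arrays were separate cultures, so p-values here reflect only array-to-array spread, possibly technical.

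The receptors of this family are tyrosine kinases of the cell surface that act as pairs. EGFR binds EGF, TGFA and amphiregulin, EGFR and ERBB4 both bind the ligands HBEGF, BTC and EREG, ERBB2 has no known ligand and serves as a partner, and ERBB3 has a weak kinase but many docking sites for PI3K. The ligands are made as membrane proteins and are cut free by ADAM proteases, after which the receptors signal through the RAS-ERK and PI3K-AKT pathways. In prostate cancer cells these ligands are known as growth factors that the cells can make for themselves.

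The ligand genes EREG and BTC lie on the long arm of chromosome 4, EREG at chr4:74365145-74388749 and BTC at chr4:74744759-74794523 in GRCh38.p14, with AREG between them at chr4:74445136-74455005. EGF lies elsewhere on the same chromosome, at chr4:109912883-110013766, and HBEGF on chromosome 5, at chr5:140332843-140346603. The 250 bases before the start of each of these 4 ligand genes are shown because their levels differed between the lines, EREG, BTC and HBEGF being higher in DU145 and EGF in LNCaP. The sequences are RefSeq's, from GRCh38.p14, and are written 5' to 3' on the strand of the gene. A promoter entry was matched for 9 of the 10 members, all but ERBB3. EREG is on the plus strand (chr4:74364895-74365144), BTC on the minus strand (chr4:74794524-74794773), HBEGF on the minus strand (chr5:140346604-140346853) and EGF on the plus strand (chr4:109912633-109912882). Capitals mark matches, on either strand, to any of 7 motifs.
EREG: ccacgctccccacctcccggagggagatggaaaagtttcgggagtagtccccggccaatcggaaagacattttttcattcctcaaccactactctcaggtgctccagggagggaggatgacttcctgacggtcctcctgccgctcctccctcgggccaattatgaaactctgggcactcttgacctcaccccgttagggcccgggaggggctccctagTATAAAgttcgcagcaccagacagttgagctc
BTC: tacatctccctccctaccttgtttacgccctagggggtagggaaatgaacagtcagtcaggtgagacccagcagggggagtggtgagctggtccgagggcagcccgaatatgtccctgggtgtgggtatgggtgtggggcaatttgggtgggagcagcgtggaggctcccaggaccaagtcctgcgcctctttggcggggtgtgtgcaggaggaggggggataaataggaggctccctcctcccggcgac
HBEGF: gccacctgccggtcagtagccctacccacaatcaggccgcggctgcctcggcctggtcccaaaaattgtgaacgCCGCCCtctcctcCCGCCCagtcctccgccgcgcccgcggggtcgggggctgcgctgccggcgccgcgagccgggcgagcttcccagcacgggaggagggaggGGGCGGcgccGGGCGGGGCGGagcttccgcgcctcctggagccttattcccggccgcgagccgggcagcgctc
EGF: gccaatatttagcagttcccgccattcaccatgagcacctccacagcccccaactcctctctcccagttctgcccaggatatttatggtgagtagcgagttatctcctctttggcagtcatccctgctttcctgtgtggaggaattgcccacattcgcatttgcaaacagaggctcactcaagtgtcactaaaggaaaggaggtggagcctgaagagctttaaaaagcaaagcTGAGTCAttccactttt

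The motifs searched, with the share of all 35116 promoters of the same length that held each, were AP-1 (TGANTCA, 6.57%), CRE (TGACGTCA, 1.65%), the TATA box (TATAAA, 10.7%), SP1 (GGGCGG, 42.6%), NF-kB (GGG, any 2 bases, then TTTCC, 1.73%), STAT (TTCNNNGAA, 6.57%) and ETS (CCGGAAG, 8.52%). No match in the printed windows overlapped a match to another motif. The EREG window held a TATA box from 32 to 27 bases before the start and no other match. The EGF window held an AP-1 match, TGAGTCA, from 17 to 11 bases before the start. The HBEGF window held 5 SP1 matches, of which the last 2 share a base, and 76.4% of its bases were G or C. No motif of the 7 was found in the BTC window, at 62% G or C. These matches describe letters only, and no binding was measured.

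Levels are given as log2 of the intensity plus 16 after each array was scaled to a common trimmed mean of 500, so that the lowest possible level is 4, and they are not compared between genes because probe sets differ in brightness. The arrays numbered 1 were deposited with a trimmed mean of 500 and those numbered 2 with 96.6 to 127. For ACTB, the ratio of the signal at the 3' end to that at the 5' end can reflect RNA length. It was 1.24 to 1.51 on number 1 arrays against 3.20 to 3.99 on number 2 arrays. For GAPDH the ratio was 0.96 to 1.06 against 1.09 to 1.22. Of 7 luminal prostate markers, 5 had a probe set, among them KLK3, KLK2 and TMPRSS2, and all 5 were above the array median on every LNCaP array and on no DU145 array. The epithelial markers EPCAM, KRT8 and KRT18 were above the median on all 10 arrays, while CDH1 and KRT19 were so on 3 of the 5 DU145 arrays. Of 4 leukocyte markers with a probe set, PTPRC and CD14 were above the median on no array, LAPTM5 on 1 and CD3E on 3, and their summed intensity was 84.8 to 172. Of 4 endothelial markers, CDH5 and KDR were above it on no array, VWF on 4 and PECAM1 on 9, and their sum was 95.1 to 324. The summed intensity of 6 fibroblast markers was 2851 and 3169 on the DU145 EOS 2 and DU145 ribavirin arrays, led by POSTN and COL3A1, against 426 to 769 on the other DU145 arrays.

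**Figure D1:**
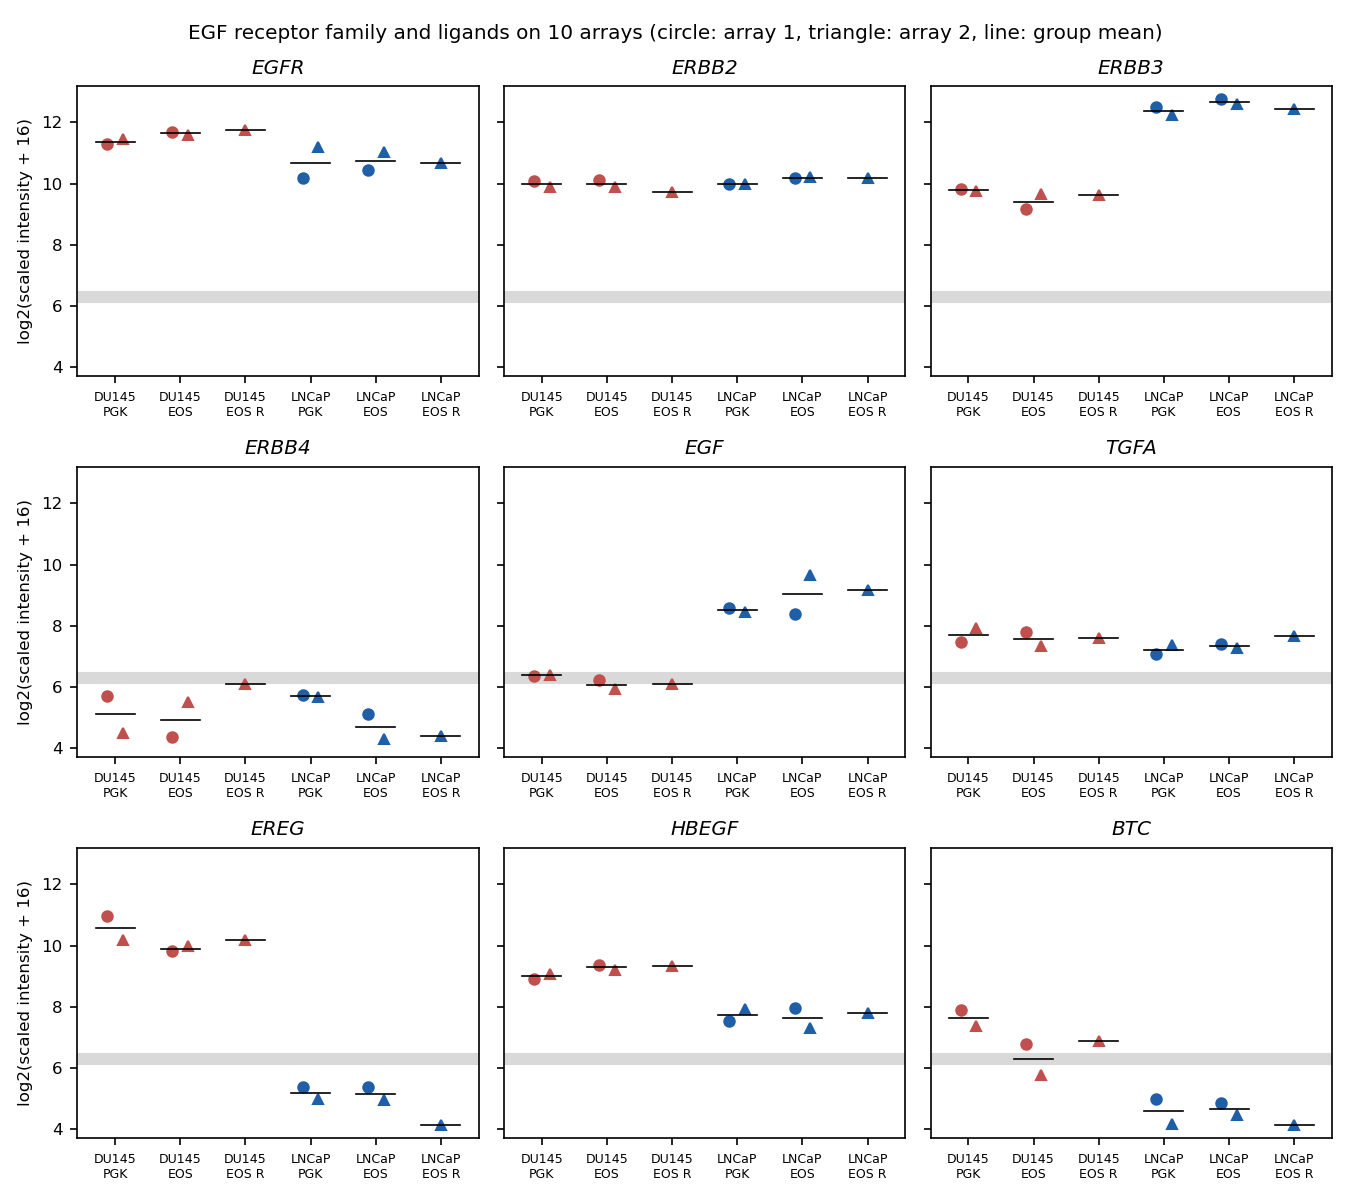
Each panel plots 1 gene as log2(scaled intensity + 16) for the 6 groups, with circles for arrays numbered 1, triangles for arrays numbered 2 (the ribavirin array, EOS R, is also a number 2) and a line at the group mean. EREG and BTC sit higher in DU145 and ERBB3 and EGF higher in LNCaP, while ERBB2 and TGFA overlap between the lines.

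ERBB3 had the largest difference between the lines among the 3 tested receptors. Its level in DU145 was 9.81 and 9.75 in the PGK arrays, 9.16 and 9.66 in the EOS arrays and 9.64 in the ribavirin array. In LNCaP it was 12.50 and 12.23 in PGK, 12.75 and 12.58 in EOS and 12.42 in ribavirin. Every LNCaP array was thus above every DU145 array, and the gap between the lines was several times the range within either, 0.66 in DU145 and 0.52 in LNCaP. Among PGK controls ERBB3 was 2.58 ± 0.22 (SE) higher in LNCaP on the log2 scale, or 5.98-fold (limma adjusted p = 7.1e-05). With the 3 states averaged the difference was 2.87 ± 0.15 (adjusted p = 1.6e-06). A further bright probe set gave 2.39 to 3.59 over the 5 pairs of arrays matched by state and number, close to the 2.48 to 3.59 of the chosen one. Of the dimmer ERBB3 probe sets, 1563253_s_at gave 0.15 to 0.78 and 215638_at, above the median on 4 arrays, -1.12 to 0.61. Averaging all kept ERBB3 probe sets lowered the PGK difference to 1.27.

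EGFR, the receptor for which the family is named, was above the array median on all 10 arrays and, over the 3 states, higher in DU145. Its level in DU145 was 11.29 and 11.44 in PGK, 11.67 and 11.60 in EOS and 11.74 in ribavirin. In LNCaP it was 10.17 and 11.20 in PGK, 10.44 and 11.03 in EOS and 10.69 in ribavirin. All 5 DU145 arrays were above all 5 LNCaP arrays, the nearest being DU145 PGK 1 and LNCaP PGK 2. Among PGK controls the difference was -0.68 ± 0.33 and did not pass the test (adjusted p = 0.156). The same difference passed with array number within each line as a block, which takes the gap between numbers 1 and 2 out of the spread (SE 0.17, adjusted p = 0.0116). In single pairs of PGK arrays it was -1.12 for number 1 and -0.24 for number 2. It also passed without LNCaP PGK 2 (-1.19, adjusted p = 0.0204). Without LNCaP PGK 1 it was -0.17 (adjusted p = 0.712). Averaged over the 3 states, EGFR was lower in LNCaP, at -0.88 ± 0.22 on the log2 scale (adjusted p = 0.0108).

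The EGFR value in LNCaP moved with array number and with the probe set. The chosen probe set, 224999_at, read 10.17 and 10.44 on the LNCaP arrays numbered 1 and 10.69 to 11.20 on those numbered 2. For 201983_s_at the same values were 7.17 and 7.86 against 8.94 to 9.45, while DU145 read 10.27 to 10.79 on all 5 arrays. The difference between the lines by this probe set was -3.10 and -2.93 in the pairs numbered 1 and -1.75 to -1.23 in those numbered 2. By 201984_s_at LNCaP was higher than DU145 in 4 of the 5 pairs, and the difference was -0.14 to 0.45. The ACTB end ratio also moves with array number, and its part in these values was not tested. With all kept EGFR probe sets averaged, the difference over the 3 states was -0.59 and did not pass (adjusted p = 0.0891).

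**Figure D2:**
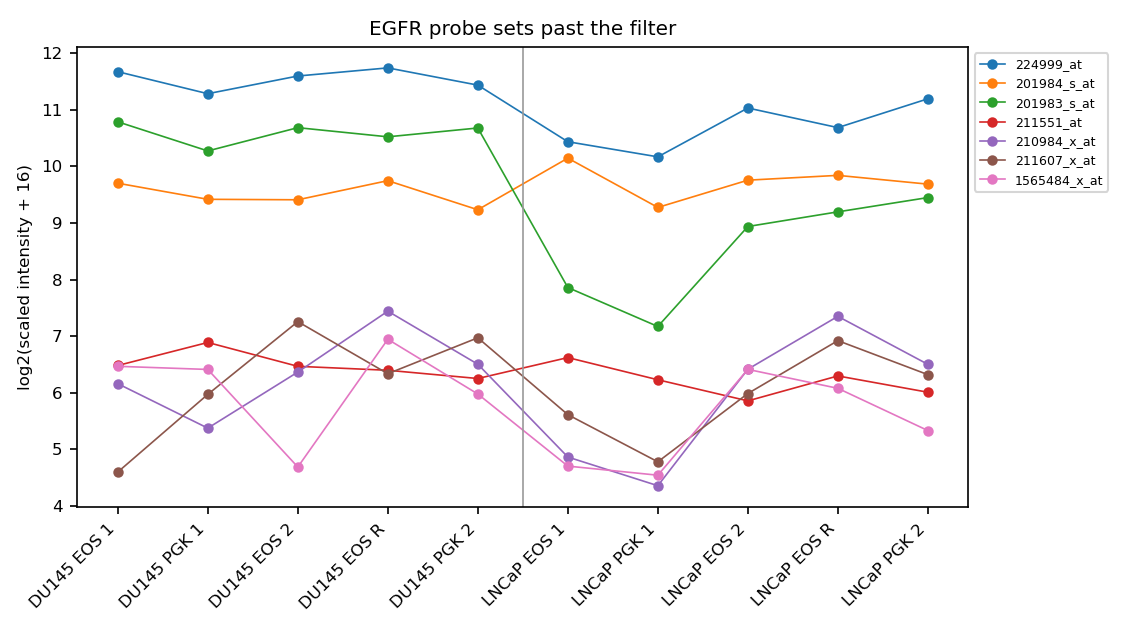
The 7 EGFR probe sets past the filter are plotted as log2(scaled intensity + 16) over the 10 arrays, with DU145 left of the grey line and LNCaP right of it, and R for ribavirin. The probe set 201983_s_at falls from above 10 in DU145 to between 7.17 and 9.45 in LNCaP, while 201984_s_at stays between 9.23 and 10.15 on every array.

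ERBB2, the partner receptor, overlapped between the lines. Its level was 10.07 and 9.89 in DU145 PGK and 9.98 and 9.98 in LNCaP PGK, and over all states it ran from 9.71 to 10.10 in DU145 and from 9.98 to 10.20 in LNCaP. The PGK arrays of LNCaP lay between those of DU145. The PGK difference was -0.00 ± 0.20, with a 95% interval from -0.46 to 0.45 (adjusted p = 0.996). Over the 3 states it was 0.22 ± 0.13 (adjusted p = 0.198). The other kept ERBB2 probe set, 234354_x_at, above the median on 6 arrays, gave -0.83 to 1.09 over the pairs of arrays matched by state and number. ERBB4, the receptor that also binds neuregulins, was at or below the array median on all 10 arrays in all of its 4 probe sets. Its chosen probe set read 4.36 to 6.09 in DU145 and 4.31 to 5.75 in LNCaP, which overlap, so no line difference is given for it.

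EREG, or epiregulin, was the ligand with the largest difference between the lines among the 8 tested members. Its level in DU145 was 10.96 and 10.19 in PGK, 9.82 and 9.99 in EOS and 10.19 in ribavirin. In LNCaP it was 5.38 and 5.0 in PGK, 5.38 and 4.97 in EOS and 4.16 in ribavirin. The lines were far apart, and no LNCaP array rose above its own array's median. EREG was lower in LNCaP PGK than in DU145 PGK, at -5.39 ± 0.35 on the log2 scale (adjusted p = 1.8e-05), which is 41.8-fold on this scale. EREG passed the filter through DU145 alone, so this difference followed from its being tested and is a description. Because the LNCaP values are near the floor, the size depends on the constant added before the log. It was -6.15 with 1 and -4.22 with 64, and the direction and the call were the same with both.

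BTC, or betacellulin, had the same direction as EREG. Its level in DU145 was 7.91 and 7.37 in PGK, 6.79 and 5.79 in EOS and 6.89 in ribavirin. In LNCaP it was 5.01 and 4.18 in PGK, 4.85 and 4.46 in EOS and 4.14 in ribavirin. The lines did not overlap, and 4 of the 5 DU145 arrays and none of the LNCaP arrays exceeded the array median. BTC was lower in LNCaP PGK, at -3.05 ± 0.56 on the log2 scale (adjusted p = 0.0039), and the size ran from -4.65 to -1.77 with other added constants. BTC too was tested because of DU145 alone, so this difference is a description. Its other kept probe set, 207326_at, was lower in LNCaP in all 5 pairs, at -2.23 to -0.29.

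HBEGF, the heparin-binding ligand, was above the array median on all 10 arrays and was higher in DU145. Its level in DU145 was 8.91 and 9.09 in PGK, 9.38 and 9.20 in EOS and 9.33 in ribavirin. In LNCaP it was 7.52 and 7.92 in PGK, 7.95 and 7.30 in EOS and 7.80 in ribavirin. The lowest DU145 array stood above the highest LNCaP array. HBEGF was lower in LNCaP PGK, at -1.28 ± 0.30 or 2.43-fold (adjusted p = 0.0116), and lower over the 3 states, at -1.49 ± 0.20 (adjusted p = 0.00036). The PGK call was lost without DU145 PGK 1 (adjusted p = 0.058), DU145 PGK 2 (0.088) or LNCaP PGK 1 (0.057), while over all alternatives the difference stayed between -1.48 and -1.08. A separate probe set, 38037_at, was lower in LNCaP in all 5 pairs, at -1.31 to -0.73.

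EGF went the other way from these ligands. Its level in DU145 was 6.38 and 6.40 in PGK, 6.23 and 5.93 in EOS and 6.11 in ribavirin. In LNCaP it was 8.60 and 8.44 in PGK, 8.38 and 9.67 in EOS and 9.16 in ribavirin. Each LNCaP array was above every DU145 array, and 2 of the DU145 arrays were above their array's median. EGF was higher in LNCaP PGK by 2.13 ± 0.42, or 4.38-fold (adjusted p = 0.0055), and higher over the 3 states by 2.71 ± 0.28 (adjusted p = 8.8e-05). The LNCaP arrays were the more spread, over 1.29 against 0.47 in DU145. TGFA, the ligand closest to EGF in receptor choice, overlapped between the lines, at 7.33 to 7.93 in DU145 and 7.08 to 7.67 in LNCaP. Its PGK difference was -0.48 ± 0.32, with a 95% interval from -1.22 to 0.25 (adjusted p = 0.293). The other kept TGFA probe set, 211258_s_at, above the median on 3 arrays, gave -1.17 to 1.36 over the pairs of arrays matched by state and number.

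In all, 5 of the 8 tested members were called between the PGK controls, ERBB3 and EGF as higher in LNCaP and EREG, HBEGF and BTC as lower. Of all tested genes 33.1% were called in this comparison, 15.2% as higher and 17.9% as lower. With the 3 states averaged 6 of 8 were called, EGFR being added as lower, against 48.4% of all genes, 23.5% as higher and 24.9% as lower. For the same 6 members the 5 LNCaP and 5 DU145 arrays did not overlap, as for 42.5% of all genes tested, 20.4% with LNCaP higher and 22% with DU145 higher. EREG and BTC passed the filter through DU145 arrays alone, so that a difference between the lines followed from their being tested. On the intensities as deposited, without scaling, 0 members were called among PGK controls and 1 over the 3 states, while the direction of each called member was the same. With array number as a block the unscaled intensities gave the same 6 members in both comparisons.

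**Figure D3:**
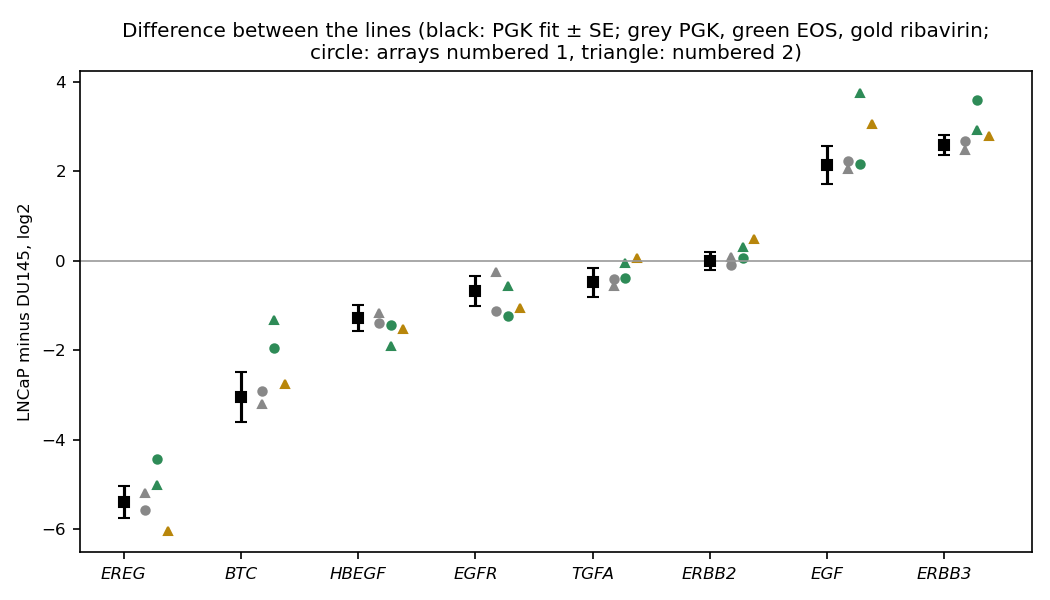
For each gene the black square and bar give the LNCaP minus DU145 difference among PGK controls with its standard error, and the coloured symbols the differences of single arrays matched by state and number (grey PGK, green EOS, gold ribavirin, circles number 1, triangles number 2), on a log2 axis. EREG lies from -6.03 to -4.44 and ERBB3 from 2.48 to 3.59, and the symbols of ERBB2 and TGFA lie on both sides of 0.

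Selection with the EOS reporter, the study's main comparison, moved none of the 8 tested members past the threshold in DU145, in LNCaP, in the mean of the lines or in the difference between them. In these 4 comparisons 0% of all genes were called by limma, with 226, 596, 292 and 464 genes at an unadjusted p under 0.05. In bulk cells, fewer cells of a kind and less RNA per cell cannot be told apart. The 95% intervals of the EOS differences for EGFR ran from -0.49 to 1.04 in DU145 and from -0.71 to 0.82 in LNCaP. For ERBB2 they ran from -0.44 to 0.46 and from -0.25 to 0.66.

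Among the uncalled EOS values of the tested members within a line, those of BTC in DU145 were the farthest from 0. The EOS minus PGK difference of BTC was -1.12 in the pair numbered 1 and -1.59 in the pair numbered 2, and neither EOS array reached a PGK array. The fitted difference was -1.36 ± 0.56 (unadjusted p = 0.0397, limma adjusted p = 1.00). EREG in DU145 differed by -1.14 and -0.21 in the 2 pairs, at -0.67 ± 0.35 (adjusted p = 1.00), and there too both EOS arrays read below both PGK arrays. On the same arrays the summed intensity of the 5 epithelial markers was 12344 to 15951 in EOS and 15640 to 22668 in PGK, and its part in these values was not tested. The DU145 EOS 2 array, the lowest for BTC, is one of the 2 with raised POSTN and COL3A1. On it COL1A1 and COL1A2 read 8.94 and 5.82, against 8.98 and 5.92 on DU145 PGK 2, and DCN and LUM were below the median. The other array with raised POSTN and COL3A1, that of ribavirin, read 6.89 for BTC. The part of these markers in the BTC values was not tested. In LNCaP, where both ligands were near the floor, the EOS differences were 0.06 ± 0.56 for BTC and -0.02 ± 0.35 for EREG.

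ERBB3 had opposite signs in the lines after EOS selection, without passing the test. Both DU145 pairs were lower in EOS, at -0.66 and -0.10, and both LNCaP pairs higher, at 0.26 and 0.35. The difference between the lines in this response was 0.68 ± 0.31 (limma adjusted p = 1.00). EGF in LNCaP was split by pair, at -0.21 in the pair numbered 1 and 1.23 in that numbered 2. HBEGF in LNCaP was likewise split, at 0.43 and -0.61, and EGFR at 0.27 and -0.16. In DU145 EGFR was 0.39 and 0.16 higher in EOS and HBEGF 0.47 and 0.12 higher, and neither passed the test.

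Ribavirin moved no tested member past the threshold either, and 0% of all genes were called in its 4 comparisons, with 250, 289, 253 and 222 genes at an unadjusted p under 0.05. These comparisons rest on 1 treated array a line, assumed to vary like the other groups, and that array is numbered 2 while the EOS controls hold both numbers. They also share their EOS arrays with the EOS comparison. EREG in LNCaP read 4.16 after ribavirin against 5.38 and 4.97 in EOS, a difference of -1.01 ± 0.43 (adjusted p = 0.999) between values near the floor. BTC in DU145 read 6.89 against 6.79 and 5.79, or 1.10 above EOS 2 and 0.10 above EOS 1. EGF in LNCaP read 9.16, between its EOS arrays at 8.38 and 9.67. For the receptors the ribavirin differences were 0.11 ± 0.41 in DU145 and -0.05 ± 0.41 in LNCaP for EGFR, and 0.23 ± 0.27 and -0.25 ± 0.27 for ERBB3.

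**Figure D4:**
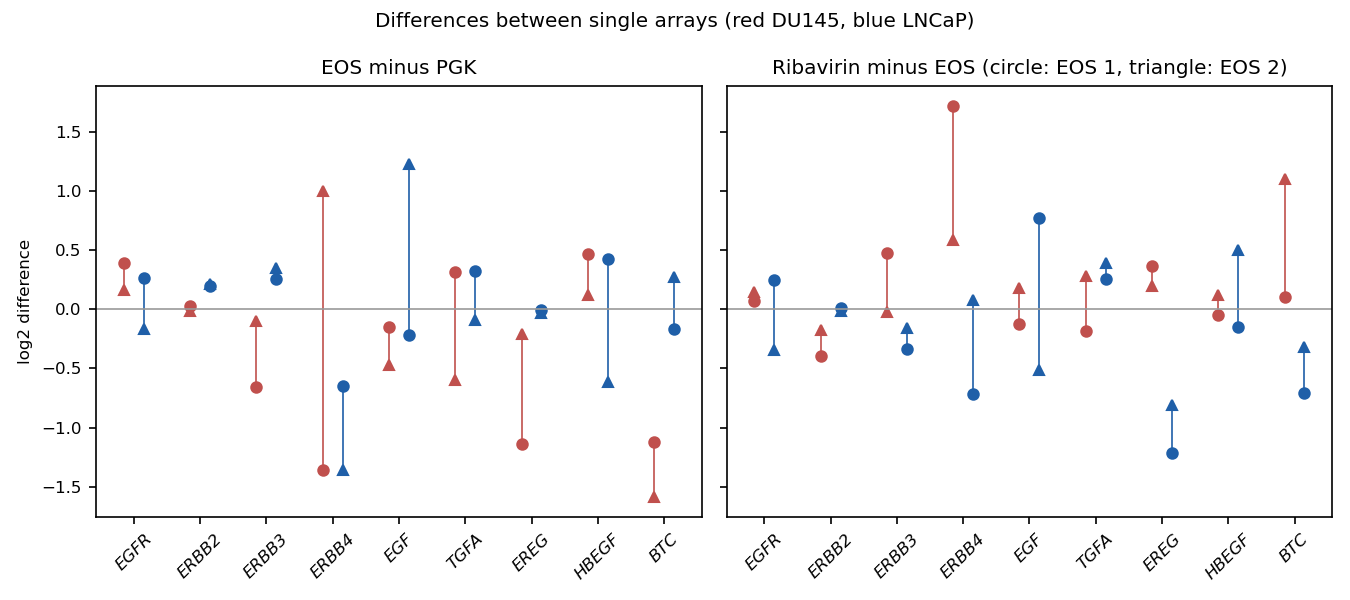
Differences between single arrays of a line are plotted on a log2 axis, EOS minus PGK of the same number on the left (circle, number 1, triangle, number 2) and ribavirin minus EOS on the right, in red for DU145 and blue for LNCaP. On the left, BTC in DU145 lies at -1.12 and -1.59 and the number 1 pair of EREG in DU145 at -1.14, while EGF, HBEGF and EGFR in LNCaP lie on both sides of 0.

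The other genes of the pathway were taken from 6 lists, and the difference between the PGK controls was read across them beside a median of -0.04 and a called share of 33.1% over all genes. Of the genes called in this comparison, 832 of 4733 had no array of 1 line above the median. They passed the filter through the other line alone, so that a difference followed from their being tested. Genes with 1 array above it in the lower line, such as ADAM19 and PLCG2 below, are not in this count. They also needed the other line to pass. Of 5 further ligands, NRG2, a neuregulin that binds ERBB3 and ERBB4, was the one past the filter, and it was lower in LNCaP, at -2.25 ± 0.59 (adjusted p = 0.0189). Among 10 proteases and iRhoms that release ligands, 1 was called higher in LNCaP and 4 lower, 50% in all, with a median of -0.60. ADAM17, the main sheddase of TGFA, HBEGF and EREG, read 11.87 and 11.99 in DU145 PGK and 9.33 and 9.32 in LNCaP PGK, and the groups were apart by more than their spread. It was lower in LNCaP, at -2.61 ± 0.30 (adjusted p = 0.00035). ADAM10, known for releasing EGF and BTC, was lower at -0.82 ± 0.16, and RHBDL2, an intramembrane protease that can cut EGF and that passed the filter through LNCaP alone, was higher at 2.68 ± 0.43. ADAM19 was lower at -2.54 ± 0.41, but 1 of its 2 kept probe sets had the opposite sign. ADAM19 was above the median on 5 DU145 arrays and 1 LNCaP array, so it was tested because of DU145 and its difference is a description.

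Of 16 genes that act on the receptors' activity or turnover, 8 were called lower in LNCaP and 3 higher, 68.8% in all, with a median of -0.96. SOCS3, which binds activated receptor complexes, read 10.03 and 10.60 in DU145 PGK and 4.19 and 4.55 in LNCaP PGK. It was above the median on all 5 DU145 arrays and on no LNCaP array, so it was tested because of DU145 alone, and the difference of -5.95 ± 0.47 (adjusted p = 4.7e-05) is a description. UBASH3B and CBLC below also passed through 1 line alone. ERRFI1, an inhibitor of the EGFR kinase that is itself induced by EGF signals, differed by -2.16 ± 0.33 and the phosphatase PTPN1 by -1.38 ± 0.22. UBASH3B, which is known to bind CBL proteins, differed by -3.41 ± 0.43. LRIG1, which promotes the breakdown of ERBB receptors, went the other way, at 1.95 ± 0.19 over the 3 states, as did the ubiquitin ligase CBLC at 2.27 ± 0.29. In the RAS-ERK cascade 5 of 15 genes were called lower and 1 higher, 40% in all and near the share over all genes, with a median of -0.23. The adaptor SHC1 was lower at -2.30 ± 0.14 (adjusted p = 1.1e-05). The RAS exchange factors SOS1 and SOS2 were lower at -2.37 ± 0.30 and -2.28 ± 0.37, and HRAS was higher at 1.61 ± 0.27.

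In the PI3K, PLC and STAT branch 4 of 16 genes were called lower and 3 higher, 43.8% in all, with a median of 0.22. JAK1, a kinase upstream of STAT proteins, read 12.23 and 12.25 in DU145 PGK and 6.69 and 6.99 in LNCaP PGK, a difference of -5.40 ± 0.40 (adjusted p = 3.3e-05). INPP4B, a lipid phosphatase of the PI3K pathway that passed through LNCaP alone, was higher at 3.40 ± 0.53, and the phospholipase PLCG2 lower at -2.06 ± 0.35. PLCG2 was above the median on 5 DU145 arrays and 1 LNCaP array, so it was tested because of DU145 and its difference is a description. STAT5B was lower at -1.43 ± 0.31, and 3 of its 4 kept probe sets shared that sign.

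The longest list held genes that ERK signals are known to induce or that feed back on ERK, of which 15 of 23 were called lower in LNCaP and 2 higher, 73.9% in all. Its median was -2.12, and 4 of its 17 called genes, ETV5 among them, had no LNCaP array above the median and passed the filter through DU145 alone. SPRY4, called lower with 4 DU145 arrays and 1 LNCaP array above the median, also needed DU145 to pass. Over the 3 states 87% of this list and 93.8% of the genes acting on the receptors were called, against 48.4% of all genes. IER3, an immediate early gene, read 12.58 and 12.41 in DU145 PGK and 6.32 and 5.88 in LNCaP PGK, and was lower at -6.40 ± 0.29 (adjusted p = 3.3e-06). The difference was -3.21 ± 0.30 for the transcription factor EGR1, -5.08 ± 0.51 for the ETS factor ETV5 and -2.90 ± 0.34 for the ERK phosphatase DUSP5. The 2 genes called higher in LNCaP, MYC at 0.78 ± 0.16 and the ERK phosphatase DUSP4 at 2.35 ± 0.75, were named after their values were seen. Protein levels and phosphorylation were not measured.

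**Figure D5:**
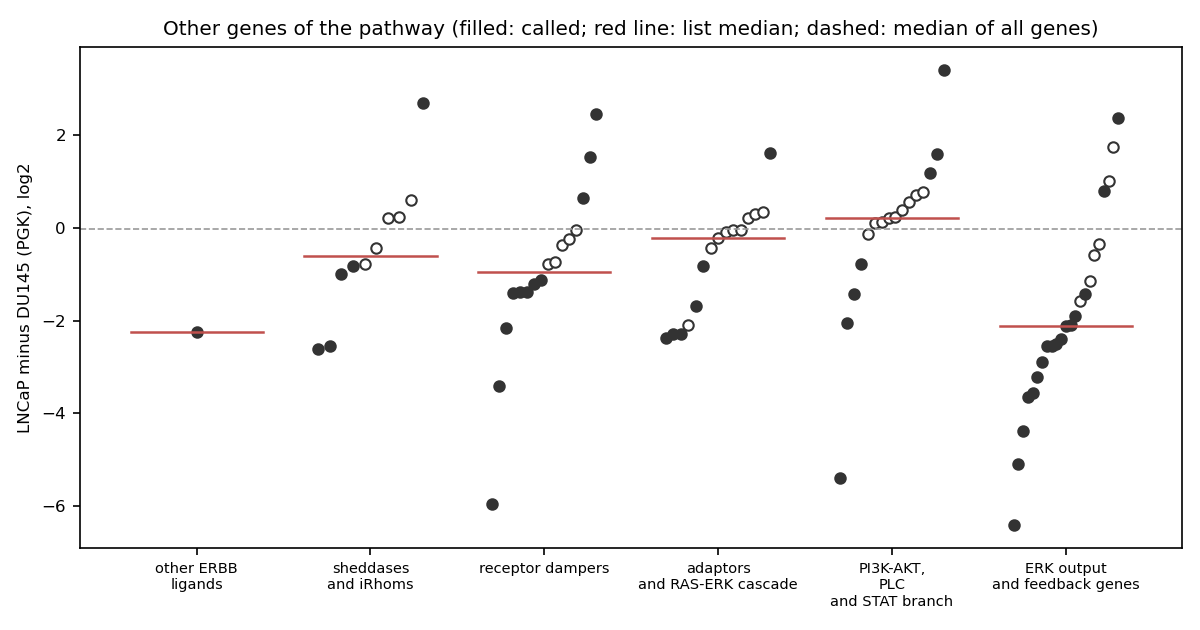
Each point is a tested gene of 1 of the 6 lists, at its LNCaP minus DU145 difference among PGK controls on a log2 axis, filled where called, with a red line at the list median and a dashed line at the median of all genes, -0.04. The ERK output genes have a median of -2.12 and reach down to IER3 at -6.40.

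Within the lines, no gene of the 6 lists was called for EOS or for ribavirin. The ERK output list had a median EOS difference of 0.20 in DU145 and 0.37 in LNCaP, beside -0.02 and 0.05 over all genes, and 16 and 17 of its 23 genes were above 0, or 69.6% and 73.9% against 47.2% and 56% of all genes. In the mean of the lines 21 of the 23 were above 0, or 91.3% against 53.1%. These counts take genes from the same few arrays, and the genes are not replicates. In DU145 the 2 pairs had opposite signs for some of them, DUSP1, DUSP5 and FOSL1 included. Other genes, such as ETV4 and EGR1, were above 0 in both DU145 pairs. Some of the 21 were close to 0, such as CCND1 at 0.02. FOS, an immediate early gene, read 4.55 and 4.41 in LNCaP PGK and 6.44 and 7.94 in LNCaP EOS. The difference was 2.71 ± 0.53 (limma adjusted p = 0.999). Its size depends on the added constant, since the PGK values are near the floor. IER3 in LNCaP differed by 0.89 and 1.42 in the 2 pairs, and SPRY4, a feedback inhibitor, by 1.14 and 1.06, with 0.32 and 0.87 in DU145. For ribavirin against EOS, the mean of the lines was -0.80 ± 0.25 for IER3 and -0.82 ± 0.28 for the cytokine LIF (adjusted p = 1.00 for both). The median of the ERK output list was then -0.10, beside 0.01 over all genes.

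The genes whose pattern was most like each member's were sought over the 10 arrays after the mean of the line was taken from each array, which leaves what varies within the lines. The highest Pearson correlation was 0.976 with LIMK1 for EGFR, 0.932 with NFKBIA for ERBB2 and 0.966 with IFIT1 for ERBB3. For the ligands it was 0.955 with IRF8 for EGF, 0.934 with RPS6KA2 for EREG, 0.954 with SAP30BP for HBEGF, 0.927 with CACNA2D1 for BTC and 0.922 with PPP1R7 for TGFA. These are the best of 14313 genes over 10 arrays that share 2 lines and 2 deposited scales, and describe likeness only. Between members, the highest r on the same values was 0.71, for EREG and BTC, which are both near the floor in LNCaP. The lowest was -0.68, for EGF and HBEGF.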

How the data were processed

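Probe set intensities on a linear scale were used as deposited by the authors for all 10 Affymetrix expression arrays. MAS5 and affy are named, with no version, per the submitters' processing notes. The background method and scaling target are not given in the sources used here. Because the deposited scale differed between arrays numbered 1 and 2, arrays were brought to a common 2% trimmed mean of 500, and 16 was added before the log2, which understates changes of dim genes. Of 54675 probe sets, 62 were controls, 41091 had 1 gene symbol, 1801 several and 11721 none. Those above the array median in at least 2 arrays were kept, and that of highest mean was taken per gene.

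Tests used limma 3.58.1 (R 4.3.3) on 6 group means with 4 residual degrees of freedom, a trended empirical Bayes spread shared by all groups, and Benjamini-Hochberg adjustment over 14313 genes at 0.05. Each value after ± is a standard error. The number of arrays limits the precision. The scripts were tested on simulated data. The design had assumed log2 values as deposited.

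Array numbers were treated as pairs in differences of single arrays and in the fits with a block, but not in the main tests. Same-number arrays deviated together from their group means, with r over genes of 0.123 in DU145 and 0.484 in LNCaP between PGK and EOS. The labels tie ribavirin to EOS 2. The members and lists were chosen with earlier results of these data known. From each pathway list, up to 4 called genes of smallest p were named per comparison, or 2 where none was called, and for likeness the genes of highest correlation. Promoter orientation and motif matches were computed on RefSeq sequences.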

Additional observations from a re-analysis of the deposited data

Results flagged for a closer look

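In the EOS minus PGK comparison, both DU145 pairs and both LNCaP pairs of ERBB3 lay on opposite sides of 0, and the lines differed in response by 0.68 (LNCaP minus DU145, log2). The same was seen for 6 named pathway genes. The difference was 1.61 for ADAM19, 1.11 for ERRFI1, 0.95 for STAT5B and 0.63 for STAT3. It was 0.89 for the ubiquitin ligase CBLB and -0.72 for the ERK-activated kinase RPS6KA3. None of the 7 differences passed the interaction test (limma adjusted p = 1.00 for each). Pairs opposed in this way occurred in 7 of the 31 members and named genes, or 22.6%, and in 2194 of all 14313 genes, or 15.3%. Pathway genes were named by smallest p in each comparison, this interaction included, which favours opposed pairs. The higher share among them is therefore not a result about the pathway.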

How the results depend on the processing

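The members were followed over up to 19 alternatives a comparison, and no called member changed direction in any of them. Without scaling of the deposited intensities, 0 members (58 genes in all) were called between the PGK controls and 1 member (442 genes) over the 3 states, against 5 (4733) and 6 (6931) with scaling. The deposited scales then stay in the spread between arrays of a group. Unscaled intensities with the replicate block, chosen after seeing the data, called 6 members (6151 and 7701 genes) in both. On scaled values the replicate block, with each line read midway between its numbers, called 6 members in both (6348 and 7960 genes). The added call among PGK controls was EGFR, at the same -0.68, and it changed no other member's call. For EOS and ribavirin it called 0 genes. Unscaled with the block, 34, 50, 3 and 82 genes were called in the 4 EOS comparisons, and 0 members. Leaving out 1 array called 4 to 6 members and 2497 to 5061 genes among PGK controls, and 6 members and 5908 to 6921 genes over the 3 states. The count fell by over 1.5 times without DU145 PGK 1 (2595) or DU145 PGK 2 (2497). Quantile normalization, no filter, no intensity trend and added constants of 1 and 64 kept the counts of 5 and 6 members. A filter at 5 arrays removed BTC. Low signal limits EREG and BTC in LNCaP and ERBB4 in both lines, since their sizes there rest on the added constant.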
